A study of Mus musculus with 10 samples.

Results

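Inguinal white adipose tissue of 20-month-old Flox mice was described here from 5 libraries, which are all the Flox libraries among the 10 libraries of the series. They were chosen by the genotype in their labels. The Flox mice are the comparison group of a study of adipose-specific loss of the growth hormone receptor (Ghr), and no library of the Ad-GHRKO group enters any value below. Flox names a genotype whose target gene carries loxP sites, and the labels give no Cre driver for these mice. All were kept to 20 months of age in individually ventilated cages on a 12-hour light and 12-hour dark cycle, with regular chow and water at will, and the subcutaneous fat was taken at necropsy. Whether the 5 samples are 5 different mice is not stated in the labels. An SD over the 5 libraries is therefore the spread between samples and may be partly technical. With a single group there was nothing to test, and every value is a description.

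White adipose tissue stores triglyceride in large fat cells, which also secrete hormones and other proteins. Around the fat cells lie fibroblast-like stromal cells that include the progenitors of new fat cells, a dense net of capillaries, nerves, and resident immune cells, mostly macrophages. The inguinal depot lies under the skin between the muscles of the body wall and the hind limb, and in mice it contains a lymph node. In bulk tissue, fewer cells of a type and less RNA per cell cannot be told apart, and that holds for every gene below.

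The deposited values are FPKM, fragments per kilobase of exon and M of assigned fragments, so gene length and library depth are scaled out. They stay relative to the whole library, and a comparison between libraries has the limit given below. A series of 5 values is given in the order Flox 1 to Flox 5, and a mean is given ± SD with n = 5. Recovered depth was 15.9 to 19.04 M reads per library (M for mega). Of 31285 genes in the table, 2508 were at 0 in every Flox library and 12998 (41.5%) had a mean of at least 1 FPKM. At 1 FPKM or more in every library there were 11222 genes, at a mean of 10 or more 4523, at 100 or more 464 and at 1000 or more 32. The label says nothing of sex, and the Y-linked genes Ddx3y (7.397, 8.46, 10.001, 8.55 and 8.31 FPKM) and Eif2s3y (11.97, 13.1, 11.9, 8.904 and 10.2 FPKM) were read in all 5 libraries while Xist did not pass 0.0239 FPKM.

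Flox 3 and Flox 5 stood apart, and this touches many values below. Genes of a skeletal muscle list, 26 in number, took 7.31% of all reads in Flox 3 and 10.5% in Flox 5, against 0.0139%, 0.0162% and 0.00665% in Flox 1, 2 and 4. Because FPKM is relative to the whole library, transcripts that take a large share can lower all others. In Flox 5 the values lay a median of 0.19 below the gene means on the log2(FPKM + 1) scale, and that library had a median ratio size factor of 0.837 against 1.03 to 1.07 in the other 4. Flox 3, the other muscle-rich library, had no such shift (0.0027 above the gene means), and what lowered Flox 5 was not tested. Of all 12998 genes at 1 FPKM or more, 48.9% were lowest in Flox 5, and 20.2% after median ratio scaling. Each statement of a highest or lowest library below was checked after rescaling to TPM and after median ratio scaling, and a change of order is named where it occurred.

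The defining markers of white fat were abundant, as the tissue label requires. Adipoq, which encodes the hormone adiponectin, was at 2051, 2452, 1539, 1913 and 1247 FPKM. Fabp4, the lipid chaperone of the fat cell cytoplasm, was at 2925, 2445, 1587, 2104 and 1606 FPKM. Cfd, the serine protease adipsin that activates the alternative complement pathway, was at 21969, 13655, 18620.3, 17798 and 8350.1 FPKM. All 3 were among the 25 most abundant genes by mean, and Cfd was the most abundant transcript of 4 libraries. Markers of the other cells of the depot were far lower. Pdgfra, a receptor of stromal progenitors, was at 9.07, 6.84, 10.7, 19.6 and 10.2 FPKM, highest in Flox 4. Pecam1, an adhesion protein of endothelium, was at 34.3, 33.96, 45.98, 31.2 and 19.4 FPKM, highest in Flox 3. Lyz2, the lysozyme of macrophages and other myeloid cells, was at 774, 244, 505, 859.9 and 242 FPKM and was about as high in Flox 1 as in Flox 4, with lower values in Flox 2 and Flox 5. Ghr itself was at 72.9, 129.8, 89.7, 80.9 and 94.1 FPKM, a mean of 93.5 ± 21.9, highest in Flox 2 and lowest in Flox 1.

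The RNA of this tissue was dominated by few genes. Cfd alone held 4.65% ± 1.47 of the summed FPKM, the 10 most abundant genes 17.8% ± 0.917, the top 100 held 39.1% ± 1.86 and the top 1000 held 68.1% ± 1.102. Ranked by mean FPKM, 258 genes held 50% of the sum, and within single libraries 190 to 258 genes did. FPKM counts a short transcript more than its reads do. Counted in recovered reads, the top 10 genes held 11.8%, the top 100 held 28.8%, and 631 genes were needed for 50%.

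**Figure D1:**
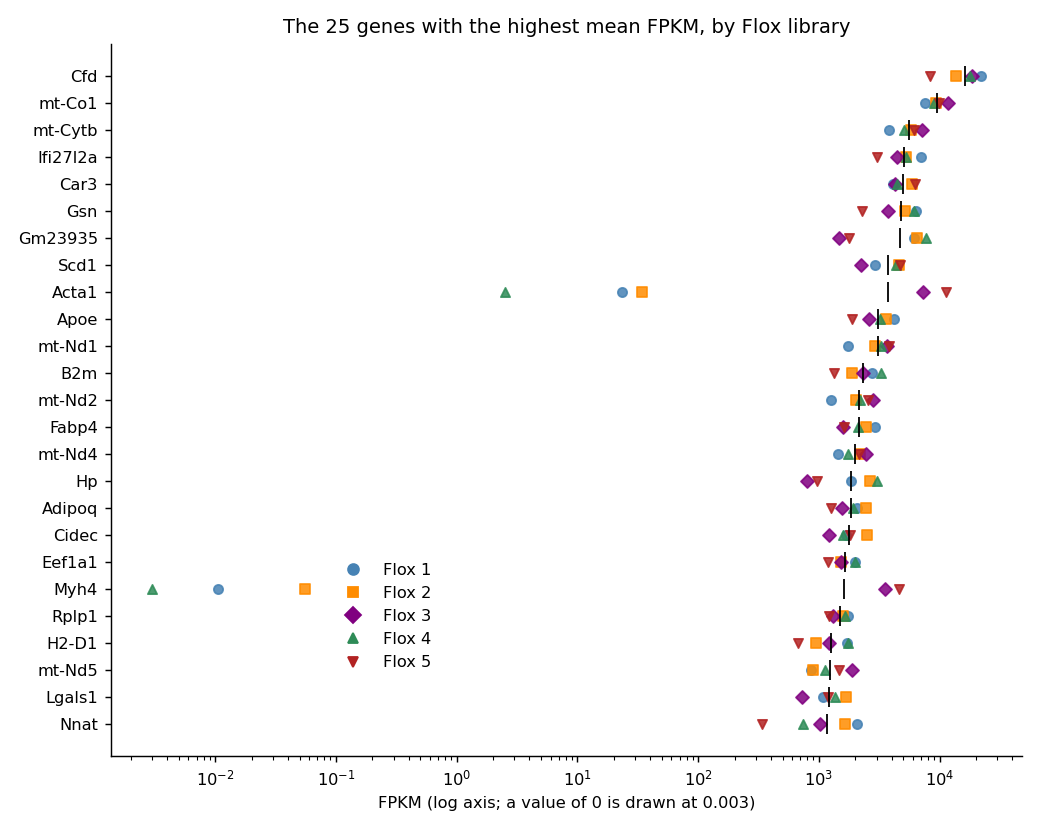
FPKM on a log axis for the 25 genes with the highest mean, 1 symbol per Flox library, with the mean as a vertical bar. Most genes span less than a 3-fold range between libraries, while Acta1 and Myh4 are high only in Flox 3 and Flox 5 and Gm23935 is lower in those 2 libraries.

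Of the 25 most abundant genes, 6 were on the list of fat cell genes, 6 were encoded by mitochondrial DNA and 2, Acta1 and Myh4, were skeletal muscle genes that were abundant only in Flox 3 and Flox 5. Cfd led (GRCm38 chr10:79890853-79892655, plus strand). Car3, a carbonic anhydrase of fat and muscle, stood at 5000.4 ± 996 FPKM and Scd1, the stearoyl-CoA desaturase that makes oleate, at 3756 ± 1122 FPKM. Cidec, which coats and fuses lipid droplets, stood at 1758 ± 472 FPKM. Ifi27l2a, an interferon-induced gene, ranked the fourth at 5027 ± 1458 FPKM, with 7055, 5277, 4465, 5296 and 3041 FPKM by library. Gsn, the actin-severing protein gelsolin, stood at 4747 ± 1723 FPKM and Apoe, the lipoprotein ligand made by fat cells and macrophages, at 3084 ± 888 FPKM. Gsn, Apoe, B2m and Cfd were all lowest in Flox 5. Hp, the hemoglobin-binding protein haptoglobin that fat cells secrete, varied more, with 1831, 2629, 799, 2999 and 961 FPKM, high in Flox 2 and Flox 4 and low in Flox 3 and Flox 5. Nnat, the imprinted gene of the small membrane protein neuronatin, was at 2062, 1634, 1027, 732 and 338 FPKM, so that its highest value, in Flox 1, was 6.10 times its lowest, in Flox 5.

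The promoter of Adipoq is shown because this gene, at a mean of 1840.4 ± 465 FPKM, is the reference marker of the cell type. The window runs from 250 bases before to 50 bases after the RefSeq start on GRCm38.p6 (chr16:23146286-23146585, plus strand), and capitals mark CAGCTG, an E box (palindromic, so the same on both strands) 61 bases before the start.
Adipoq: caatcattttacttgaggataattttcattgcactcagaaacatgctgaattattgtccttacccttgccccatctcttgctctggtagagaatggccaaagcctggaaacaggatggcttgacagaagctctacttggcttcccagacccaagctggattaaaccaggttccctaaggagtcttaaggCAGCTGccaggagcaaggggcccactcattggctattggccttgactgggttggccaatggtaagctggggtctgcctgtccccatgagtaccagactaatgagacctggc
Over the top 100 genes, 62 matched a promoter in the RefSeq table. TATAAA on the sense strand, lying wholly between 40 and 20 bases before the start, was in 5 of these 62 (8.06%). It was in 2.25% of the 27025 genes of the RefSeq table. A gene with several starts counts if any of them matches. CAGCTG anywhere in the window was in 22 of the 62 (35.5%) and in 18.3% of all genes of the RefSeq table. In the top 500, where 338 genes matched, the shares were 4.44% and 20.4%. The skeletal muscle list, high in Flox 3 and Flox 5, gave 11 of the top 100 genes. Among those matched, Acta1, Atp2a1, Ckm, Myh4, Myl1 and Mylpf hold CAGCTG, while Pvalb and Mybpc2 do not. Muscle genes thus supply part of the 35.5%. All motif counts here are matches of letters and were not tested as binding sites.

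By biotype, nuclear protein-coding genes held 85.04% ± 1.404 of the summed FPKM and 94.7% of recovered reads, and 11259 of 17856 (63.1%) had a mean of at least 1 FPKM. The 12 protein-coding genes of the mitochondrial genome in the table held 7.11% ± 1.59 of the summed FPKM. Pseudogenes, 4253 in number, held 4.10% ± 0.295, led by Gm12191 at 441 ± 122 FPKM, and 811 of them reached 1 FPKM. Of the short exon windows of Gm12191, 100% also occur in another gene. Its value, and with it its lead among the pseudogenes, is therefore uncertain. Long noncoding RNAs were 5863 genes and held 0.896% ± 0.108, and 553 (9.43%) reached 1 FPKM. The most abundant were the nuclear RNAs Neat1 (159.6, 198, 107, 108 and 79.6 FPKM), which builds paraspeckles, and Malat1 (87.4, 78.4, 80.01, 72.8 and 95.5 FPKM), which lies in nuclear speckles. Immunoglobulin and T cell receptor segments held 0.770% ± 0.463. The class annotated as miRNA held 1.57% ± 0.839 of the summed FPKM but 0.0327% of recovered reads, and 86.0% of its FPKM came from a single gene.

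That gene is Gm23935, whose annotated length is only 57 bases (GRCm38 chr16:11144125-11144181, plus strand). It ranked the seventh of all genes at 6098, 6460.1, 1474, 7732 and 1776 FPKM, from 1566 to 7863 reads, with the 2 lowest values in Flox 3 and Flox 5. Gm24270 (chr9:56223715-56223771, minus strand) was the second gene of the class at 366, 404, 55.5, 383 and 67.3 FPKM, again lowest in Flox 3 and Flox 5. The 2 sequences are shown because they are identical base for base in GENCODE M21, so a read that lies within them cannot be assigned to either locus from its sequence alone. Another annotated gene, Gm24245, has the same sequence and was not analysed here.
Gm23935: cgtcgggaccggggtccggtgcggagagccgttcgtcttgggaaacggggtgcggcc
Gm24270: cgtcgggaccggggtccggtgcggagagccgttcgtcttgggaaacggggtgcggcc
How the deposited counting divided such reads is not given in the sources used here, and the rank of Gm23935 rests on a very short length as much as on its reads. Mature miRNAs are shorter than the fragments of a polyA-selected library, so this class says nothing of mature miRNA levels.

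The 15 mitochondrially encoded genes of the table held 5.14%, 7.22%, 9.49%, 6.85% and 8.25% of the summed FPKM. Of these, 12 encode subunits of the respiratory chain made inside the organelle, and 3 are rRNA or tRNA genes. They were lowest in Flox 1 and highest in Flox 3, or in Flox 5 after median ratio scaling. mt-Co1, the catalytic subunit of cytochrome c oxidase, was at 7521, 9384, 11728, 9041 and 9897 FPKM, mt-Cytb of complex III at 3800.2, 5812, 7137, 5052 and 6131 FPKM and mt-Nd1 of complex I at 1743, 2898, 3653, 3236 and 3785 FPKM. Other mitochondrially encoded subunits were listed far lower, with mt-Co2 at 261 ± 59.3, mt-Atp6 at 90.9 ± 29.5 and mt-Nd4l at 5.696 ± 2.22 FPKM. The low ones are those whose sequence has a near copy in the nuclear genome. Of all 50-base windows, 100% of those of mt-Co2, 99.5% of those of mt-Atp6 and 98.8% of those of mt-Nd4l occurred in another gene, against 0% for mt-Cytb and mt-Nd1. Of the 7 nuclear copies of this stretch on chromosome 1, 4 were listed between 135 and 152 FPKM, among them Gm28661 (139 ± 38.3 FPKM), Gm10925 (148 ± 37.7 FPKM) and Gm29216 (152 ± 35.1 FPKM), and 3 between 4.09 and 27.5 FPKM. The values of these mitochondrial genes and their copies are therefore uncertain, and mt-Co1 too shares 51.1% of its windows.

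Genes of fat cell identity were abundant in every library. The 26 genes of the fat cell list held 12.4%, 11.9%, 10.8%, 11.2% and 9.75% of the summed FPKM, and all 26 had a mean of at least 1 FPKM. The SD of log2(FPKM + 1) over the 5 libraries had a median of 0.40 in this list, against 0.25 over all 12998 genes at 1 FPKM or more. Level differs, however: the median mean of the list was 558 FPKM, and the 464 genes at 100 FPKM or more had a median SD of 0.36. One gene of the 26, Fasn, had an SD over 1 (3.85%), a share near the 3.61% of all genes and below the 7.33% of genes at 100 FPKM or more. Plin1, the gatekeeper protein on the lipid droplet, was at 602, 637, 522, 541 and 471 FPKM and Cd36, the fatty acid transporter, at 612, 702, 575, 574 and 470.4 FPKM. Both stayed within 1.49-fold between the highest library and the lowest. Slc2a4, the insulin-responsive glucose carrier GLUT4, was at 90.6, 115, 129.9, 95.2 and 159.6 FPKM, highest in Flox 5, a muscle-rich library, and skeletal muscle expresses it too. The transcription factors that hold the fat cell state were present at 392 ± 96.8 FPKM for Cebpa and 80.6 ± 17.7 FPKM for Pparg, and none of the 17 factors of that list at 1 FPKM or more had an SD over 1.

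The 24 genes of lipolysis and lipid droplets had a median SD of 0.33, also above that of all genes. None had an SD over 1, against 3.61% of all genes. Pnpla2, the triglyceride lipase ATGL, was at 1466, 1123, 1037, 809 and 1118 FPKM and Lipe, hormone-sensitive lipase, at 352, 317, 189, 220.3 and 209 FPKM, both highest in Flox 1. Adrb3, the receptor through which norepinephrine starts lipolysis in mouse fat, was at 254, 218, 209, 133 and 108 FPKM, again highest in Flox 1. Of the hormones, Lep, which encodes leptin, was at 163, 381, 199, 325 and 349 FPKM and Retn, which encodes resistin, at 567, 1065, 508, 941 and 841 FPKM. Both were lower in Flox 1 and Flox 3 than in the other 3 libraries.

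Genes of fat synthesis from glucose had a median SD of 0.53, against 0.25 over all genes at 1 FPKM or more. The list of de novo lipogenesis held 1.15%, 2.20%, 1.44%, 1.99% and 2.80% of the summed FPKM, and 4 of its 21 genes at 1 FPKM or more had an SD over 1. Fasn, fatty acid synthase (chr11:120805846-120824547, minus strand), was at 112, 904, 715, 679.95 and 1558 FPKM, so Flox 5 was 13.9 times Flox 1. Acly, which makes cytosolic acetyl-CoA, was at 29.3, 134, 126, 128 and 297 FPKM and Scd2, a second desaturase, at 8.61, 49.98, 19.6, 54.4 and 66.8 FPKM. The fatty acid elongase Elovl6 was at 2.29, 9.64, 13.02, 7.63 and 19.001 FPKM. In these 4 genes Flox 1 was the lowest and Flox 5 the highest. Over the list 15 of the 21 genes were lowest in Flox 1 and 16 were highest in Flox 5 (16 and 17 after median ratio scaling). Without that scaling, 13.3% of all genes were lowest in Flox 1 and 10.7% highest in Flox 5. Srebf1, a transcription factor that drives the pathway, ranged only from 59.5 to 89.1 FPKM.

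A set of genes raised in fasting or by lipid-activated receptors was highest in Flox 1, where lipogenesis was lowest, and next in Flox 2, where lipogenesis was the second highest. Angptl4, a secreted inhibitor of lipoprotein lipase, was at 327, 254, 81.2, 43.6 and 36.2 FPKM. Pdk4, the kinase that shuts off pyruvate oxidation, was at 116, 38.7, 45.8, 19.9 and 37.2 FPKM. Pck1, which supplies glycerol for re-esterification in fat, was at 1257, 1014, 424, 308 and 284 FPKM. All 3 were highest in Flox 1, and Angptl4 and Pck1 were next highest in Flox 2. Irs2, an insulin receptor substrate, was at 25.1, 14.97, 12.5, 7.04 and 4.05 FPKM and Txnip, an inhibitor of glucose uptake, at 708, 616, 277, 169.9 and 122 FPKM, again highest in Flox 1. The list of PPAR target and fasting genes was put together after such values were seen. Highest in Flox 1 were 7 of its 11 genes at 1 FPKM or more, against 25.8% of all genes. The labels do not give the feeding state or the hour at which each mouse was killed, and the part of either was not tested.

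Some clock genes differed between libraries. Dbp, an output gene of the circadian clock, was at 1.201, 1.87, 8.75, 17.1 and 25.4 FPKM, low in Flox 1 and Flox 2. Nr1d1, the repressor REV-ERB alpha, was at 26.4, 30.8, 83.9, 74.7 and 76.8 FPKM and Bhlhe40, another clock repressor, at 2.76, 2.001, 18.03, 17.1 and 14.3 FPKM, with the same 2 libraries low. The activator partner Npas2 was at 4.29, 2.46, 1.96, 1.56 and 0.515 FPKM, highest in Flox 1 and lowest in Flox 5. Per1 stayed between 20.7 and 25.6 FPKM. Of the 19 clock genes, 2 (10.5%) had an SD over 1, against 3.61% of all genes.

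**Figure D2:**
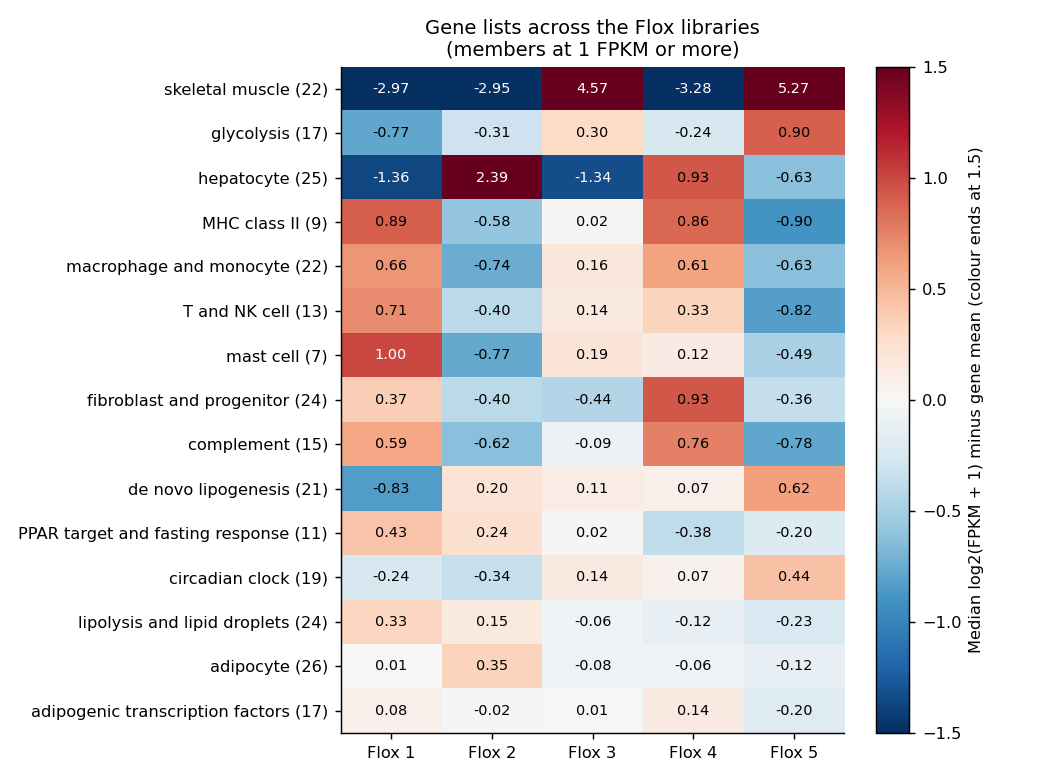
Median over the members of each gene list (number at 1 FPKM or more in brackets) of log2(FPKM + 1) minus the gene's mean over the 5 Flox libraries, with the value printed in each cell and the colour scale ending at 1.5. Skeletal muscle is at 4.57 and 5.27 in Flox 3 and Flox 5, the hepatocyte list at 2.39 in Flox 2, and MHC class II at 0.89 and 0.86 in Flox 1 and Flox 4, while the fat cell list stays between -0.12 and 0.35.

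Thermogenic genes were at mixed levels, and 11 of 16 had a mean of at least 1 FPKM. Ucp1, the uncoupling protein of brown and beige fat cells, was at 0.0385, 0.0685, 0.0656, 0.0343 and 9.76 FPKM, near 0 in 4 libraries and measurable only in Flox 5. Cidea, high in brown fat, was at 70.8, 24.3, 34.1, 13.1 and 51.9 FPKM and Cox8b at 108, 86.8, 95.4, 46.6 and 164 FPKM. Flox 5 was also the library with the most muscle RNA, and Cox7a1, a heart and muscle form that is also used as a beige fat marker, was at 2.59, 7.85, 18.4, 5.03 and 26.8 FPKM, higher in both muscle-rich libraries than in the other 3.

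Of the growth hormone and IGF axis, 17 of 20 genes had a mean of at least 1 FPKM. The axis runs from Ghr through Jak2 and Stat5 to Igf1, a growth factor that circulates with binding proteins. Igf1 was at 16.1, 28.8, 15.5, 16.4 and 14.6 FPKM, highest in Flox 2, which was also the library with the most Ghr. The binding protein genes were the most abundant of the list, with Igfbp7 at 334 ± 84.4 FPKM, Igfbp4 at 241 ± 53.04 FPKM and Igfbp6 at 220.01 ± 152 FPKM. Igfbp6 was at 249, 115, 128, 474 and 133 FPKM, highest in Flox 4, as were other stromal genes. Cish, an early target of STAT5 downstream of growth hormone, was the only gene of the list with an SD over 1, at 0.609, 0.594, 6.93, 0.384 and 1.13 FPKM. Its high value is that of Flox 3 alone. With 1 of 17 genes (5.88%) over an SD of 1, the list was near the 3.61% of all genes.

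**Figure D3:**
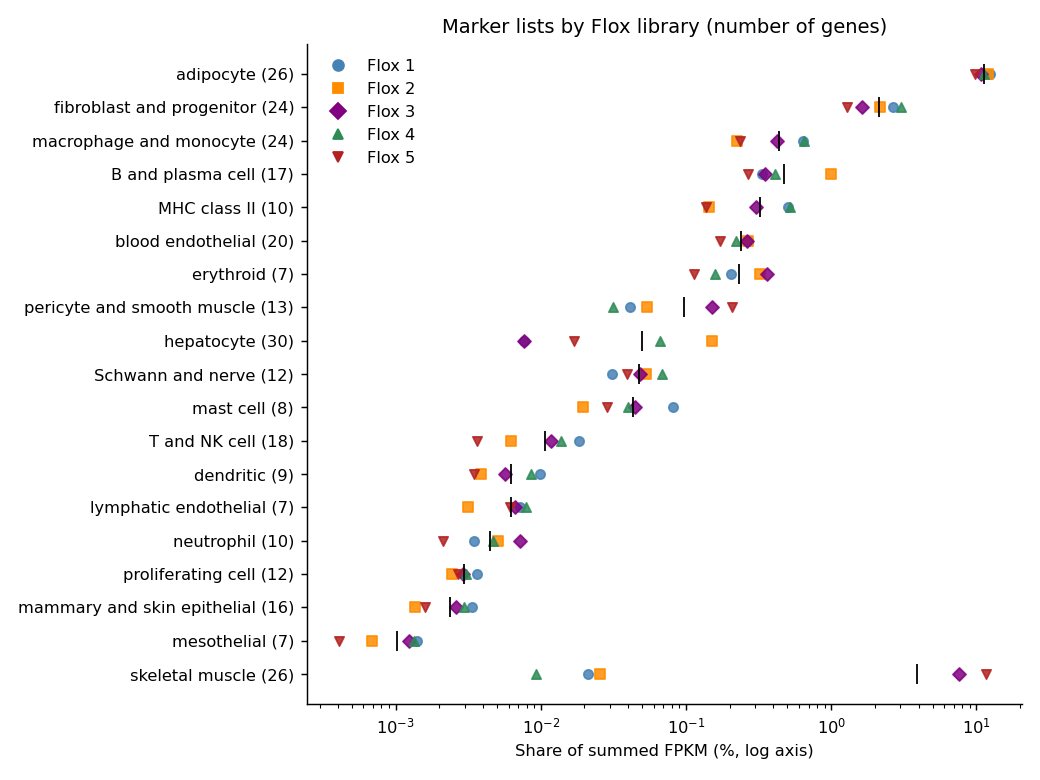
Share of summed FPKM (%, log axis) held by each marker list in each Flox library, with the mean as a vertical bar and the number of genes in brackets. The fat cell list lies near 10% in every library, fibroblast, macrophage and blood endothelial lists between 0.1% and 4%, and the skeletal muscle list spans from under 0.01% to over 10%.

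Among the cell type lists, stromal genes came next after the fat cell genes in Flox 1, Flox 2 and Flox 4. In Flox 3 and Flox 5 the skeletal muscle list was above the stromal list. The 24 fibroblast and progenitor genes, all at a mean of 1 FPKM or more, held 2.65%, 2.15%, 1.62%, 3.05% and 1.28% of the summed FPKM, of which Gsn took the largest part. Dpt, the matrix protein dermatopontin, was at 882, 1000.5, 501, 1225 and 629.9 FPKM and Dcn, the proteoglycan decorin, at 203, 126, 142, 374 and 127 FPKM. Pi16 and Dpp4, which mark the uncommitted progenitors of the interstitium, were at 74.7, 30.6, 30.7, 111 and 26.2 FPKM and 10.97, 4.203, 6.05, 23.9 and 4.903 FPKM. Flox 4 was highest for all 4, and for 18 of the 24 genes of the list (17 after median ratio scaling), against 20.8% of all genes. Fn1, fibronectin, was at 105, 26.3, 40.2, 213 and 49.1 FPKM, with Flox 4 again the highest and Flox 1 next. The fibrillar collagens were led by Col3a1 at 185 ± 81.4 FPKM and Col1a1 at 135 ± 47.5 FPKM, and the basement membrane chain Col4a1, made by fat cells and vessels, was at 159.8 ± 27.1 FPKM. None of the 16 collagen genes at 1 FPKM or more had an SD over 1, against 3.61% of all genes.

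Vessel genes were lower. The 20 blood endothelial genes held 0.269%, 0.269%, 0.263%, 0.220% and 0.173% of the summed FPKM, with a median SD of 0.41. Of the 20, 18 were lowest in Flox 5, where 48.9% of all genes were, but only 10 after median ratio scaling. Gpihbp1, which carries lipoprotein lipase to the capillary lumen, was at 101, 86.9, 73.8, 67.4 and 34.7 FPKM and Cdh5, VE-cadherin, at 45.5, 45.5, 61.8, 33.1 and 29.4 FPKM. Cldn5, a tight junction protein, was the only one with an SD over 1, at 143, 101, 43.5, 25.97 and 18.5 FPKM, high in Flox 1 and Flox 2. That is 5% of the 20 genes, near the 3.61% of all genes. Of the 7 lymphatic endothelial genes 3 had a mean of at least 1 FPKM, led by Lyve1, a hyaluronan receptor that some macrophages also carry, at 15.8 ± 6.79 FPKM, while the defining factor Prox1 was at 0.0925 ± 0.0235 FPKM. Rgs5 and Acta2, of pericytes and smooth muscle, were at 37.6 ± 10.9 FPKM and 56.4 ± 17.2 FPKM. Tagln, a smooth muscle gene that is usually abundant, was listed at 0.168 ± 0.0753 FPKM, and 58.0% of its 50-base windows lie in another gene of the annotation, so its value is uncertain.

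Macrophage genes separated Flox 1 and Flox 4 from Flox 2 and Flox 5, with Flox 3 between them. The 24 macrophage and monocyte genes held 0.639%, 0.225%, 0.422%, 0.650% and 0.236% of the summed FPKM. C1qa, a chain of the complement component that tissue macrophages make, was at 349.6, 119, 212, 343 and 113 FPKM, Csf1r, the receptor on which macrophages depend, at 76.4, 21.2, 48.1, 61.3 and 25.6 FPKM and Adgre1, the F4/80 antigen, at 28.95, 8.17, 19.3, 30.3 and 8.45 FPKM. The highest library was Flox 1 or Flox 4 for all 22 members at 1 FPKM or more. Of all genes, 25.8% were highest in Flox 1 and 20.8% in Flox 4. None of the 22 had an SD over 1, against 3.61% of all genes. Retnla, a product of alternatively activated macrophages, reached 981, 203, 537, 1315 and 294 FPKM and the chemokine Ccl8 308, 54.2, 150.4, 357 and 67.5 FPKM. Inflammatory cytokines were hardly read: Tnf was at 0.432 ± 0.255 FPKM, Il1b at 0.445 ± 0.237 FPKM and Il6 was at 0 in 4 libraries and 0.0462 FPKM in Flox 2.

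Antigen presentation moved with the macrophage genes. The MHC class II list held 0.508%, 0.144%, 0.305%, 0.522% and 0.138% of the summed FPKM. Cd74, the invariant chain, was at 710.4, 187, 423, 730.3 and 189 FPKM and H2-Ab1 at 352, 93.5, 209, 392 and 96.9 FPKM. MHC class I was more abundant and held 1.82%, 1.09%, 1.44%, 1.94% and 0.784%, with B2m at 2302 ± 740.4 FPKM and H2-D1 at 1251 ± 466 FPKM. All 15 class I genes were lowest in Flox 5, also after median ratio scaling, against 48.9% and 20.2% of all genes. Complement beyond Cfd followed the same libraries, with C3 at 522, 244, 475, 766 and 291 FPKM and C4b at 681, 223, 433, 648 and 151 FPKM, although 34.6% of the windows of C4b are shared with another gene.

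Among the 12998 genes at 1 FPKM or more, 276 were at least 1.5-fold higher in both Flox 1 and Flox 4 than in each of the other 3 libraries. They held 3.67%, 1.47%, 2.14%, 4.44% and 1.42% of the summed FPKM and included 6 of the 9 MHC class II genes at 1 FPKM or more, 8 of 15 complement genes, 9 of 24 fibroblast genes and 4 of 22 macrophage genes. This pattern, like the other patterns over pairs of libraries below, was defined after the values were seen.

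Lymphocyte genes were low apart from immunoglobulins. Cd3e, a chain of the T cell receptor complex, was at 0.411 ± 0.221 FPKM and the regulatory T cell factor Foxp3 at 0.231 ± 0.113 FPKM. Foxp3 was the lowest of the 18 genes of the T and NK cell list. Of these 18, 13 had a mean of at least 1 FPKM, and the highest mean was 5.89 FPKM. Cd79a, a signalling chain of the B cell receptor, was at 14.3, 6.35, 4.38, 1.77 and 2.67 FPKM, highest in Flox 1. Secreted antibody genes had another order. Igkc, the kappa constant region, was at 725, 2139, 642, 633 and 178 FPKM, Jchain, which links IgM and IgA into polymers, at 17.9, 58.2, 16.2, 30.2 and 5.92 FPKM and Ighm, the heavy chain of IgM, at 363, 1265, 449, 735 and 678 FPKM, all highest in Flox 2. Igha was highest in Flox 4 (7.35, 0.903, 8.53, 25.3 and 2.62 FPKM) and Ighg2c was low in Flox 1 and Flox 2 (1.14, 1.44, 16.2, 14.7 and 15.8 FPKM). The list of B and plasma cell genes held 0.333%, 0.998%, 0.348%, 0.412% and 0.267% of the summed FPKM.

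The antibody V segments were uneven within a library. Igkv14-126 (chr6:67896172-67896642, plus strand) was at 328, 1373, 149, 129.9 and 6.601 FPKM and took 64.8%, 95.1%, 25.04%, 18.4% and 5.03% of the summed FPKM of the 94 kappa V segments. It ranked the first in Flox 1 to 4 and the fifth in Flox 5. Ighv11-2 (chr12:114048241-114048812, minus strand) was at 64.7, 297, 44.3, 31.4 and 1.71 FPKM and took 44.3%, 90.5%, 14.8%, 9.99% and 3.29% of the 99 heavy V segments. As background, Ighv11-2 with Igkv14-126 is a known pairing of B-1 cells, an innate-like B cell class, that binds phosphatidylcholine. From Flox 1 to Flox 5, 17, 14, 50, 52 and 20 kappa segments and 7, 9, 36, 34 and 10 heavy segments reached 1 FPKM. Few segments were thus read in Flox 1, Flox 2 and Flox 5, and in Flox 5 neither of these 2 segments was dominant. Which heavy and light chains were joined in a cell is not measured in bulk RNA.

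**Figure D4:**
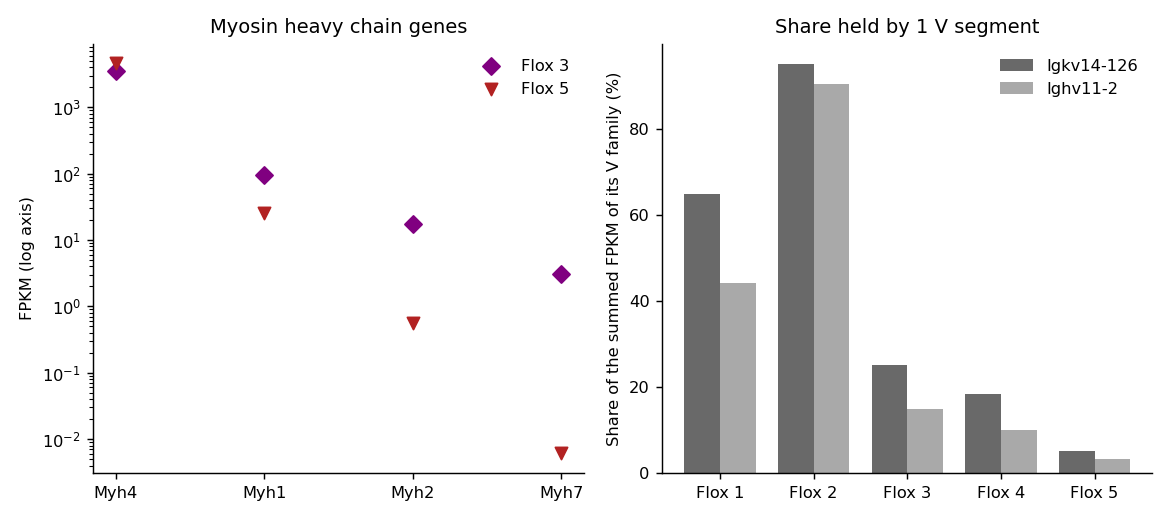
Left, FPKM on a log axis of the 4 main adult myosin heavy chain genes in Flox 3 and Flox 5, the 2 muscle-rich libraries. Right, the share of all kappa V segment FPKM held by Igkv14-126 and of all heavy V segment FPKM held by Ighv11-2 in each library, both above 90% in Flox 2 and near 5% or below in Flox 5.

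Other cells were minor. Mast cell genes were highest in Flox 1, with Mcpt4, a chymase, at 107, 22.1, 48.9, 50.1 and 31.9 FPKM. At 1 FPKM or more, 7 of 7 such genes were highest there (6 after TPM or median ratio scaling), against 25.8% of all genes. Hemoglobin from blood was present, with Hbb-bs at 316, 541, 609.8, 252 and 174 FPKM. Epithelial and mesothelial markers were close to 0: Krt14 was at 0.0459 ± 0.0631 FPKM, Epcam at 0.152 ± 0.134 FPKM and Bnc1 at 0 in every library. The epithelial list as a whole took at most 0.00339% of summed FPKM. Mki67, a marker of cycling cells, was at 1.14 ± 0.279 FPKM, and the senescence marker Cdkn2a was at 0.538, 0.621, 0.458, 1.39 and 1.34 FPKM.

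Most genes differed little between the 5 libraries. The SD of log2(FPKM + 1) over the libraries had a median of 0.25, with the middle 50% of genes between 0.17 and 0.38. Counting of reads alone would give a median SD of 0.05, and only 1001 genes (7.83% of those with recovered counts) lay under 1.5 times their own counting SD. An SD over 1 was found in 469 of 12998 genes (3.61%), and over 2 in 135. Flox 1 and Flox 4 were closest, with 481 genes (3.70%) more than 2-fold apart, and Flox 1 and Flox 5 farthest, with 1694 genes (13.03%). On the leading axis of a principal component analysis, with 65.6% of the variance, Flox 3 and Flox 5 lay on the opposite side from the other 3 libraries.

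**Figure D5:**
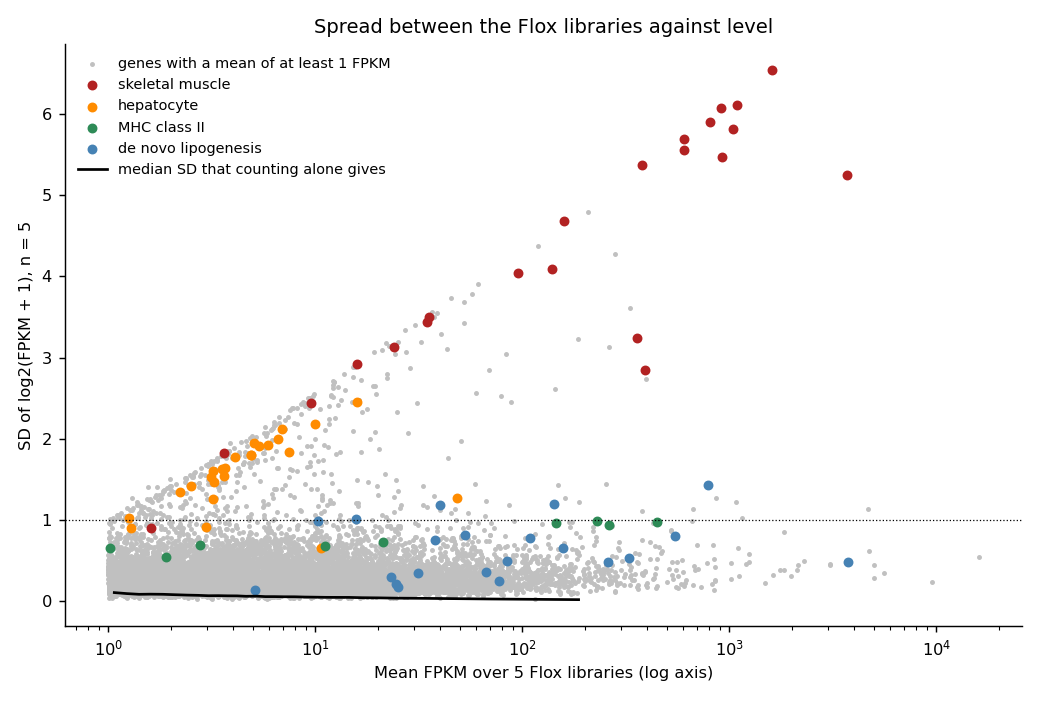
SD of log2(FPKM + 1) over the 5 Flox libraries against mean FPKM (log axis) for all genes at 1 FPKM or more (grey), with 4 gene lists in colour, the SD that counting alone gives as a line and an SD of 1 dotted. The genes with the highest SD are the skeletal muscle list, up to 6.54 for Myh4, the hepatocyte list lies between 0.66 and 2.45, and the bulk of genes lies well under 1.

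Genes high in Flox 3 and Flox 5 made up most of that set. Among the 469 genes, Flox 3 and Flox 5 were the highest pair in 292 (62.3%), against 10.5% of all genes at 1 FPKM or more. Of the 20 most variable named genes with a mean of at least 5 FPKM, 13 were on the skeletal muscle list. Acta1, the actin of the thin filament, was at 23.4, 34.5, 7333, 2.52 and 11169 FPKM. Atp2a1, the calcium pump SERCA1 of fast fibers, was at 0.254, 0.129, 2293, 0.161 and 3145 FPKM and Ckm, muscle creatine kinase, at 0, 0.0192, 1783, 0.0577 and 2786 FPKM. In each the 2 sets of libraries did not overlap, with Flox 3 and Flox 5 far above the other 3. The same gap ran through the contractile apparatus, with the troponins Tnnt3 (0.717, 0.354, 2260.1, 0.991 and 2971 FPKM) and Tnni2 (0.379, 0.1497, 1254, 0.487 and 1774 FPKM) and the fast light chain Mylpf (1.25, 1.48, 1546, 0.844 and 3043 FPKM). Tnnc2, the troponin C that works with Tnnt3 and Tnni2 in the same fibers, was listed at only 0.158, 0.07004, 0.671, 0.0701 and 0.722 FPKM, and 47.9% of its windows are shared with the overlapping gene Ube2c, so its value is uncertain.

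The myosin reads were mostly of Myh4, the fastest fiber form. Myh4, the heavy chain of type 2B fibers (chr11:67238029-67260446, plus strand), was at 0.0105, 0.0559, 3503, 0 and 4562 FPKM. Of the summed FPKM of Myh4, Myh1, Myh2 and Myh7, Myh4 took 96.8% in Flox 3 and 99.4% in Flox 5. Myh1, of type 2X fibers, was at 94.3 FPKM in Flox 3 and 25.4 FPKM in Flox 5, and Myh2, of type 2A fibers, at 17.4 and 0.559 FPKM. Myh7, of slow fibers, was at 3.12 FPKM (501 reads) in Flox 3 and at 1 read in Flox 5. The slower isoforms were thus a larger part of the myosin in Flox 3, and 18.9% of the windows of Myh4 are shared with another gene.

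The promoters of 3 of these genes are shown because the muscle genes moved together. CAGCTG matches the E box CANNTG that the myogenic factors of the MyoD family bind. It was in the promoters of 10 of 20 matched genes of the skeletal muscle list (50%) and of 5 of 17 of the fat cell list (29.4%). Over all genes of the RefSeq table the share was 18.3%. The sequences are from RefSeq on GRCm38.p6, 250 bases before to 50 bases after the start. Capitals mark CAGCTG anywhere and a TATAAA that lies wholly between 40 and 20 bases before the start, while any other TATAAA stays in lower case. They lie at chr11:67237562-67237861 for Myh4, chr7:19410844-19411143 for Ckm and chr7:127211358-127211657 for Mylpf, all on the plus strand.
Myh4: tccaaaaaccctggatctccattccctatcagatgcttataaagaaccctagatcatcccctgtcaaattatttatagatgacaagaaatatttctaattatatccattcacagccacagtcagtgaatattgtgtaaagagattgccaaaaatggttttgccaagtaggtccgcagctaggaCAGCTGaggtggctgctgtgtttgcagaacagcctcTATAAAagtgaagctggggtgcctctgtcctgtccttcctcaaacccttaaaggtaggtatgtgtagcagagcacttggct
Ckm: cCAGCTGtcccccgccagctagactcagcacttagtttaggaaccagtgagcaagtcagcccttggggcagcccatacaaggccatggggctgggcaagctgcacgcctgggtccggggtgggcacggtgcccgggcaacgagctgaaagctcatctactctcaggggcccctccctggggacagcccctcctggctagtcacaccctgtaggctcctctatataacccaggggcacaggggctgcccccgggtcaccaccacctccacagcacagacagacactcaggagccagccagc
Mylpf: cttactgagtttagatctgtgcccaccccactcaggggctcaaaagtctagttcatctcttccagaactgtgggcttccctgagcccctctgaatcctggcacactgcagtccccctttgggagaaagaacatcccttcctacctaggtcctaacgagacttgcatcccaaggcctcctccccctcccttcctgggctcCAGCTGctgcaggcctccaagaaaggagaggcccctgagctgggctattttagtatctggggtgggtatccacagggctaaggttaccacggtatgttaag
In Myh4 the E box began 67 bases and TATAAA 31 bases before the start, in Ckm the E box began 249 bases and in Mylpf 51 bases before it. With 20 matched genes the exact 95% interval of the share is 27.2% to 72.8%, and a match does not show that a factor binds.

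Among the 12998 genes at 1 FPKM or more, 387 were at least 2-fold higher in both Flox 3 and Flox 5 than in each of the other 3 libraries. These 387 held 0.377%, 0.494%, 10.99%, 0.436% and 17.2% of the summed FPKM. They included 21 of the 22 skeletal muscle genes and 6 of the 17 glycolysis genes at 1 FPKM or more. Without Flox 3 and Flox 5, only 4 genes of the muscle list averaged 1 FPKM or more. Most of the 22 thus passed the filter through the 2 libraries where they were high, so this count was largely fixed in advance. Eno3, the muscle form of enolase, was at 20.7, 15.5, 547, 7.61 and 1205 FPKM and Aldoa, aldolase A, at 362, 537, 1493, 449.5 and 2554 FPKM. Gapdh, often used as a reference gene, was at 15.7, 21.9, 80.9, 25.2 and 93.8 FPKM and followed the same libraries. H19, an imprinted noncoding RNA, was at 0.256, 0.273, 23.1, 0.296 and 37.3 FPKM. Whether muscle RNA accounts for the other genes that were high in these 2 libraries was not tested. Without Flox 3 and Flox 5, 244 of 12890 genes (1.89%) had an SD over 1, and 146 of them were also among the 469.

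Antibody segments and liver genes led the spread when those 2 libraries were left out. Of the 244 genes, 74 were immunoglobulin segments and 24 were on a list of hepatocyte genes, which was put together after such values were seen. Among the 20 most variable genes of Flox 1, 2 and 4 with a mean of at least 5 FPKM there, 15 were receptor segments and 4 hepatocyte genes. With receptor segments, predicted genes and Rik genes left out, 16 of the 20 were hepatocyte genes. Apoa2, an HDL protein, was at 0.117, 57.2, 0.4996, 18.8 and 2.64 FPKM and Apoa1 at 0.255, 32.8, 0.2605, 14.8 and 1.78 FPKM. Alb, albumin, was at 17.4, 118, 14.7, 67.99 and 25.2 FPKM. Ttr, the carrier of thyroid hormone and retinol, was at 0, 24.1, 0.0905, 9.78 and 0.664 FPKM and Hamp, the iron hormone hepcidin, at 0, 9.57, 0, 7.52 and 1.28 FPKM. In all 5 genes Flox 2 was the highest and Flox 4 the second, and Flox 1 and Flox 3 were the 2 lowest. All 25 hepatocyte genes at 1 FPKM or more were highest in Flox 2, against 25.1% of all genes. Among the 12998 genes at that level, 51 were at least 2-fold higher in both Flox 2 and Flox 4 than in each other library. They included 24 of the 25 hepatocyte genes. The list took 0.00766%, 0.150%, 0.00769%, 0.0661% and 0.0169% of the summed FPKM. The source of these transcripts was not tested.

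Single libraries also had genes of their own. Flox 1 was high for Hspa1b, an inducible heat shock protein, at 26.1, 2.798, 4.04, 4.84 and 4.31 FPKM, for Fosb, an immediate early gene, at 7.89, 1.17, 1.17, 0.637 and 0.749 FPKM and for Thbs1, the matrix protein thrombospondin, at 27.8, 7.08, 8.93, 2.49 and 1.53 FPKM. The commoner immediate early gene Fos did not follow, at 12.7, 13.2, 10.4, 20.3 and 11.3 FPKM.

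By unscaled FPKM, the steadiest abundant genes included Por, Bag6, Hdlbp and Wars. After median ratio scaling, Flox 5 was the highest library for each of these genes, so their steadiness depends on the scaling. Por, the electron donor of the cytochrome P450 enzymes, was at 116, 116, 112, 117 and 115 FPKM, an SD of 0.03 on the log2 scale. Bag6, which guards newly made membrane proteins, was at 39.9, 40.2, 41.2, 37.98 and 40.7 FPKM. Hdlbp, an RNA-binding protein, was at 38.4, 39.2, 38.7, 40.4 and 41.99 FPKM and Wars, the tryptophan tRNA synthetase, at 24.1, 22.8, 23.5, 24.6 and 24.4 FPKM. Among genes commonly used as references, Sdha stayed between 152 and 188 FPKM and Hprt between 41.6 and 62.5 FPKM, while Gapdh spanned 5.96-fold and B2m 2.43-fold.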

How the data were processed

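RNA of the 5 Flox samples was polyA-selected, fragmented and primed with random hexamers, and the second strand was marked, per the labels' protocols. The authors deposited FPKM values per gene with one column per library, per the file headers. The aligner, counter and strand setting, not given in the sources used here, could shift the values of overlapping genes. The submitters' processing notes name GRCm39, but the positions in the table are those of GRCm38: 31124 of 31253 genes (99.6%) have the coordinates of GENCODE M21, and positions are printed as they stand in the table.

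FPKM times GENCODE M21 exon length and a constant per library gave whole reads, within 0.01, for 99.24% to 99.3% of values, which gives the recovered reads. No 2 libraries held identical values. Ranks, shares and marker lists used FPKM. Spread was the SD of log2(FPKM + 1), computed for genes averaging 1 FPKM or more, and an SD over 1 was called variable. Counting error covers sampling of reads only. The script was tested on simulated data. Sequence sharing is the percent of 50-base exon windows found in another gene. Promoters are from RefSeq (GRCm38.p6).

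The members and 49 gene lists were chosen with earlier results of these data known, and 3 further lists (hepatocyte, PPAR target and fasting, alternatively activated macrophage) and the patterns over pairs of libraries after the values were seen. Genes named by rule were the 25 most abundant, the 20 most variable averaging 5 FPKM or more, with all libraries and without Flox 3 and 5 (predicted, Rik and receptor segment genes left out), the 15 steadiest averaging 20 FPKM or more, and per list up to 4 most abundant and 2 most variable genes, but not all of them are named. Other genes were named after their values were seen. Python 3.11.15, pandas 2.3.3, numpy 2.4.6, scipy 1.17.1 and matplotlib 3.10.9 were used.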

Additional observations from a re-analysis of the deposited data

Results flagged for a closer look

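In each group of 5 values, the gap of the extreme library to its nearest neighbour was set against the whole range. By chance about 1 in 20 groups passes the critical value, and 16 of the 144 genes named in the report and 2 of 52 gene lists passed it. Many of these genes were named for their spread, so their count cannot be read against that rate.

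Flox 2 was set apart by antibody genes. Igkv14-126 at 1373 FPKM, Ighv11-2 at 297 FPKM and Igkc at 2139 FPKM were far above the other 4 libraries, as was the list of B and plasma cell genes, at 0.998% of the summed FPKM. The same library was apart for Igf1, at 28.8 FPKM, for the list from the insulin receptor to GLUT4, at 0.375% of the summed FPKM, and for the cytokine Il6, whose only reads gave 0.0462 FPKM.

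Flox 1 stood apart for 4 genes, with Fosb at 7.89 FPKM, Hspa1b at 26.1 FPKM, Thbs1 at 27.8 FPKM and Pdk4 at 116 FPKM. Flox 4 was apart for Fos, at 20.3 FPKM.

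Flox 3 was apart for Cish, at 6.93 FPKM, and for the myosin heavy chains Myh1, at 94.3 FPKM, Myh2, at 17.4 FPKM, and Myh7, at 3.12 FPKM. Flox 5 was apart for Ucp1, at 9.76 FPKM, and for Ube2c, at 3.19 FPKM. No explanation of these values was tested.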

How the results depend on the processing

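No paired analysis was possible because only 1 group is described. Counting recovered reads in place of FPKM moved most shares, since FPKM weights a transcript by the inverse of its length: the top 10 genes held 11.8% and the top 100 held 28.8% of reads, the fat cell list 10.2%, de novo lipogenesis 3.59%, mitochondrially encoded genes 3.23% and all protein-coding genes 97.9%, and 631 genes held 50%. With mitochondrially encoded genes left out of the sum, the top 10 held 15.8% and the top 100 held 35.4%. Ranking by median FPKM gave 36.5% for the top 100, since genes abundant in Flox 3 and Flox 5 alone then drop out of it.

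The 469 genes with an SD over 1 became 749 with a pseudocount of 0.1, 262 at a mean of 5 FPKM or more (where the 286 that were at least 2-fold higher in Flox 3 and Flox 5 became 176), and 244 without Flox 3 and Flox 5. Leaving out 1 library at a time gave 432 to 501 of the former and 221 to 297 of the latter, and 1.91% to 4.84% for the skeletal muscle list, whose mean of 3.88% fell to 1.91% without Flox 5. The same step gave 17.5% to 18.3% for the top 10, 38.7% to 39.6% for the top 100, 10.9% to 11.6% for the fat cell list, 1.70% to 2.11% for de novo lipogenesis, 0.380% to 0.487% for macrophage genes, 6.86% to 7.95% for mitochondrially encoded genes, 91.7% to 92.6% for protein-coding genes, 250 to 267 genes holding 50% and 12900 to 13150 genes at 1 FPKM or more. None of these alternatives turned a direction. Depth limits genes under about 1 FPKM, and 5 samples of 1 group allow no test.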
